A study of Mus musculus with 6 samples.

Results

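The data described here are the mRNA levels of 10 regulators of the step from quiescence (G0) into the cell cycle (G1) in mature follicular B cells. In these cells exon 3 of Myh9, the gene for the myosin IIa heavy chain, was floxed on 1 or both alleles for deletion by Cre. The members were taken by name from the deposited table: the D cyclins Ccnd2 and Ccnd3, the kinases Cdk4 and Cdk6, the kinase inhibitors Cdkn1b, Cdkn2c and Cdkn2d, the pocket proteins Rb1 and Rbl2, and Myc. They make up 12 of its 25017 entries and 10 of its 20458 gene names. Each entry stands for the transcripts that encode 1 coding sequence, and FPKM (a fragment count divided by transcript length and by library size) was summed over the entries of a gene. B220+AA4.1-CD23+CD21lo cells were sorted from C57BL/6 mice of 2 genotypes, CD23Cre+Myh9wt/fl and CD23Cre+Myh9fl/fl, with 3 samples each and 6 in all. Both genotypes carry Cre driven by the CD23 (Fcer2a) promoter, which acts from the transitional stage of B cell maturation onward, so the comparison group has lost 1 allele of Myh9 and is not wild-type. The labels give neither the age of these mice nor whether a sample is 1 animal.

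Each FPKM value is 1 number per genotype, pooled by the authors over its samples. No spread between mice, no error and no test can therefore be given for any value below, and depth per sample is unknown. Differences are log2(FPKM + 1) in fl/fl minus log2(FPKM + 1) in wt/fl, a scale that understates the change of low genes. They are set beside those of the 9866 genes averaging 1 FPKM or more, whose median difference was 0.0026, with quartiles of −0.11 and 0.11. In sorted bulk RNA, a shift in the makeup of the cells and a shift in the RNA of each cell cannot be told apart. Myh9, of which only exon 3 is floxed, was at 50.6 FPKM in wt/fl cells and 21.1 FPKM in fl/fl cells, 41.7% of the wt/fl level. The sorted cells carried B cell mRNA at high levels in both genotypes: the 11 follicular B cell markers listed ranged from 160 to 1739 FPKM, with a median difference of 0.060. Their differences ran from −0.10 to 0.42. The highest was that of Fcer2a, the gene of CD23, at 439 FPKM in wt/fl cells and 588 FPKM in fl/fl cells.

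D-type cyclins are made in response to mitogens and bind CDK4 or CDK6. The active kinases phosphorylate the pocket proteins RB1, RBL1 (p107) and RBL2 (p130), which in quiescent cells hold E2F-controlled genes in a repressed state. INK4 inhibitors (encoded by Cdkn2a to Cdkn2d) block CDK4 and CDK6 directly, CIP/KIP inhibitors such as p27 (Cdkn1b) bind cyclin-CDK complexes, and Myc drives the growth in mass that precedes division. Resting B cells sit in G0 and enter the cycle after engagement of the antigen receptor, CD40 or Toll-like receptors, with cyclin D2 and cyclin D3 as their main D-type cyclins.

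The promoter table of RefSeq (GRCm38.p6, windows of 300 bases from 250 bases before to 50 bases after a transcript start) held 9 windows for 7 of the 10 members, Ccnd3, Cdk4, Cdk6, Cdkn1b, Cdkn2c, Cdkn2d and Rbl2. The windows were searched on both strands for the E-box CACGTG, the core site bound by Myc with its partner Max, for the forkhead site GTAAACA, which FOXO proteins bind, and for the E2F sites TTTCGCGC, TTTGGCGC, TTTCCCGC and TTTGGCGG. The E-box reads the same on both strands, and forkhead matches may read TGTTTAC. Of all 32851 windows, 7.15% held an E-box, 3.65% a forkhead site and 2.37% an E2F site. Matches fell in 4 member windows, which are shown 5′ to 3′ on the gene's strand with the matches in capitals, and are printed because Myc and the FOXO gene Foxo1 are among the genes whose levels are given below. The Cdk4 window (chr10:127063285-127063584, plus strand) held 4 E-boxes, the first bases of which lie 172, 118, 98 and 11 bases before the start, and 8 of the 32851 windows (0.0244%) held 4 or more. The Cdk6 window (chr5:3343643-3343942, plus strand) held 1 E-box, 220 bases before the start. Cdkn2c has a pair of windows, and the one at chr4:109665323-109665622 (minus strand) held 1 E-box, 35 bases after the start. Ccnd3 also has a pair of windows, and the one at chr17:47504801-47505100 (plus strand) held 1 forkhead match, 243 bases before the start. E2F matches numbered 0 in the 9 windows, and a match is a run of letters, not a site shown to be bound.
Cdk4: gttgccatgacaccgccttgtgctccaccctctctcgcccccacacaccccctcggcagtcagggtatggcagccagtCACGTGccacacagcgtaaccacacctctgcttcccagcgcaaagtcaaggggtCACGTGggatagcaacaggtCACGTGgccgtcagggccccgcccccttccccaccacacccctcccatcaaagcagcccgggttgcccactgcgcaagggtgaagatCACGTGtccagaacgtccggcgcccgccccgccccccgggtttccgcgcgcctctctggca
Cdk6: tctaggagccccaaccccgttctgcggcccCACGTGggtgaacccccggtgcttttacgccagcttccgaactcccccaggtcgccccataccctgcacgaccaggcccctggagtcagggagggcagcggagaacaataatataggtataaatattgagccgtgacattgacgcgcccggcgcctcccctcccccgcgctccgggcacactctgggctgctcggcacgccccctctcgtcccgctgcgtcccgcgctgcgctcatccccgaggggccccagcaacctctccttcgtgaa
Cdkn2c: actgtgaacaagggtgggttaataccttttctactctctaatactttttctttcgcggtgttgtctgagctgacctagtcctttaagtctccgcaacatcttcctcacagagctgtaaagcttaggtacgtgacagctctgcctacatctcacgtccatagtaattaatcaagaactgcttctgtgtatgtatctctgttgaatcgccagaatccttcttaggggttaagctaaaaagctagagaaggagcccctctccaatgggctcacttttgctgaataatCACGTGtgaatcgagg
Ccnd3: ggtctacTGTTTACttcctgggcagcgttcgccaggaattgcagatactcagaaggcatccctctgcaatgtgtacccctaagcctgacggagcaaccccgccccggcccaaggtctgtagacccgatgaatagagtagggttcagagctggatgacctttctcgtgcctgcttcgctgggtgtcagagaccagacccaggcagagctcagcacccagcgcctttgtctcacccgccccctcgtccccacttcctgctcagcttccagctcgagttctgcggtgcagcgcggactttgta

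The D cyclins were lower in myosin IIa-deficient cells. Ccnd2, which encodes the cyclin induced by antigen receptor signals, was at 15.3 FPKM in wt/fl cells and 10.4 FPKM in fl/fl cells, 31.7% lower, a difference of −0.51. Ccnd3, which encodes the cyclin on which expanding B cell precursors and germinal center B cells depend, was at 15.7 FPKM in wt/fl cells and 12.4 FPKM in fl/fl cells, 21.2% lower, a difference of −0.32. Both cyclins thus stood at nearly the same level in wt/fl cells, with a Ccnd3 to Ccnd2 ratio of 1.03, and the ratio was 1.19 in fl/fl. Ccnd1, the third D cyclin and not a member, was at 1.55 FPKM in wt/fl cells and 2.16 FPKM in fl/fl cells, so it was the only D cyclin higher in fl/fl. The summed D cyclin level was 32.6 FPKM in wt/fl cells and 25 FPKM in fl/fl cells, 23.2% lower. Ccnd2 gave 47.0% of the wt/fl sum and 41.8% of the fl/fl sum, Ccnd3 48.3% and 49.6%, and Ccnd1 4.75% and 8.66%.

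Ccnd2 and Ccnd3 each have 1 entry. The table places Ccnd2 on chromosome 6 from 127075727 to 127162437 and Ccnd3 on chromosome 17 from 47642000 to 47748441, positions that follow the older mouse build mm9 although the submitters' processing notes name mm10. Only 2 of the 12 positions given for the members and Myh9 overlap the gene of that name in GRCm38. The Ccnd2 interval covers 86711 bases, against 27032 bases for the gene in GENCODE M21, so it extends beyond the gene itself, and how fragments were shared among overlapping transcripts is not given in the sources used here.

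**Figure D1:**
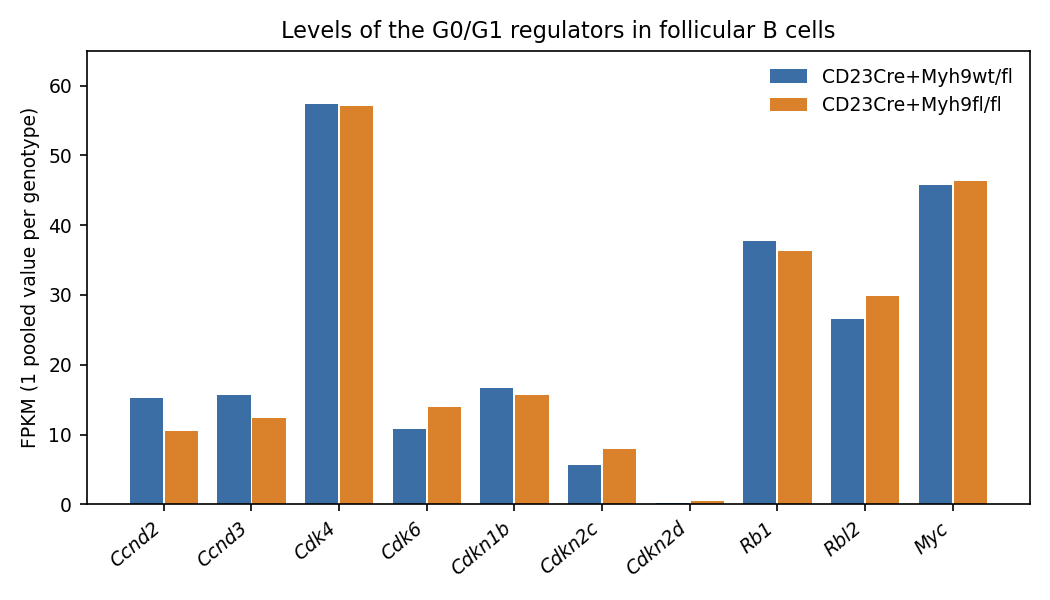
FPKM of the 10 G0/G1 regulators (vertical axis), with 1 bar for each genotype, blue for CD23Cre+Myh9wt/fl and orange for CD23Cre+Myh9fl/fl, and no error bars because each bar is 1 pooled value. Cdk4 is the highest at 57.4 and 57.1 FPKM, the bars of Ccnd2 and Ccnd3 are shorter in fl/fl, and those of Cdk6 and Cdkn2c are taller.

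Of the kinases that pair with D cyclins, Cdk4 was the more abundant, with nearly equal values in both genotypes, whereas Cdk6 was higher in fl/fl. Cdk4 (chromosome 10 from 126500659 to 126504338) was at 57.4 FPKM in wt/fl cells and 57.1 FPKM in fl/fl cells, a difference of −0.0083. Cdk6 (chromosome 5 from 3344312 to 3522225) was at 10.8 FPKM in wt/fl cells and 13.9 FPKM in fl/fl cells, 29.0% higher, a difference of 0.34. The Cdk4 to Cdk6 ratio was accordingly 5.32 in wt/fl and 4.10 in fl/fl. Cdk2, the kinase of cyclins E and A, was at 20.9 FPKM in wt/fl cells and 21.8 FPKM in fl/fl cells, and Cdc37, which encodes the HSP90 co-chaperone that loads CDK4, at 34.9 and 33.1 FPKM. Set against the kinases, the summed D cyclins came to 0.477 of the summed Cdk4 and Cdk6 level in wt/fl and to 0.352 in fl/fl. Of the 8 G1 and S phase kinase genes listed, which include the CDK-activating kinase Cdk7 with Ccnh and Mnat1 and the phosphatase Cdc25a, 6 were higher and 2 lower in fl/fl, with a median difference of 0.091.

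Among the inhibitors, Cdkn2c was higher in fl/fl and Cdkn1b was close to its wt/fl level. Cdkn2c, which encodes the INK4 protein p18 (chromosome 4 from 109333481 to 109337977), was at 5.68 FPKM in wt/fl cells and 7.94 FPKM in fl/fl cells, 39.8% higher, a difference of 0.42. This is the largest difference in the upward direction among the 9 members averaging 1 FPKM or more, and Cdkn2c is also the lowest of the 9 in level. Cdkn1b, which encodes p27 (chromosome 6 from 134870419 to 134875543), was at 16.6 FPKM in wt/fl cells and 15.7 FPKM in fl/fl cells, a difference of −0.081. The Cdkn1b to Cdkn2c ratio was 2.93 in wt/fl and 1.98 in fl/fl.

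Cdkn2d, which encodes the INK4 protein p19, was barely detected. It was at 0.254 FPKM in wt/fl cells and 0.435 FPKM in fl/fl cells, under the filter of 1 FPKM, so it is the 1 of the 10 members left out of the counts. The table lists Cdkn2d at a pair of positions on chromosome 9, from 21092908 to 21095653 and from 123836860 to 123839607, of 2746 and 2748 bases. The second entry is listed at 0 in both genotypes, and GENCODE M21 has Cdkn2d at 1 position. If the intervals hold near-identical copies, fragments that match both could have been split or lost, so the low level of Cdkn2d is uncertain.

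The other inhibitors of the same families were low as well. Cdkn1a (p21) was at 1.18 FPKM in wt/fl cells and 0.794 FPKM in fl/fl cells, Cdkn1c (p57) at 0.792 and 0.354 FPKM, Cdkn2b (p15) was listed at 0 in wt/fl and at 0.174 FPKM in fl/fl, and Cdkn2a was listed at 0 in both. The 7 inhibitors together came to 24.6 FPKM in wt/fl cells and 25.4 FPKM in fl/fl cells. Cdkn1b gave 67.8% of the wt/fl sum and 61.8% of the fl/fl sum, and Cdkn2c 23.1% and 31.3%. The summed D cyclins were 1.46 times the sum of Cdkn1b and Cdkn2c in wt/fl and 1.06 times in fl/fl.

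**Figure D2:**
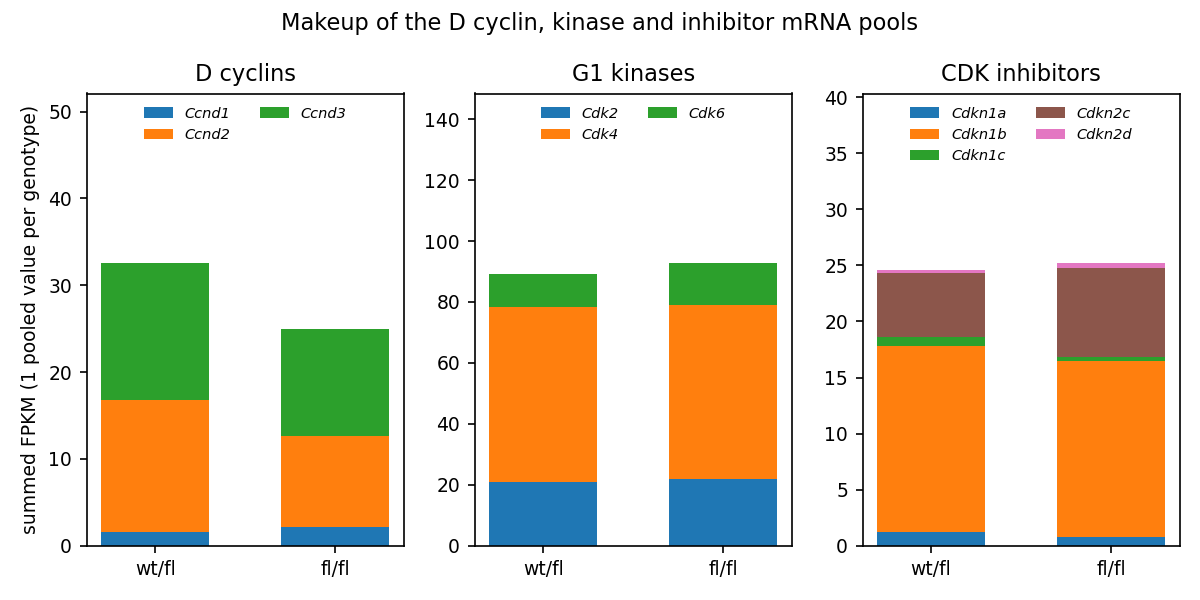
Summed FPKM (vertical axes, 1 pooled value per genotype) of the D cyclins, the G1 kinases and the CDK inhibitors, stacked by gene for wt/fl and fl/fl, without the inhibitors Cdkn2a and Cdkn2b, which were at 0.174 FPKM or less. The D cyclin stack goes from 32.6 to 25 FPKM, whereas the inhibitors together are at 24.6 and 25.4 FPKM, with a larger share of Cdkn2c.

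Rb1 and Rbl2 were the more abundant pocket protein genes, with Rb1 near its wt/fl level and Rbl2 slightly higher in fl/fl. Rb1 (chromosome 14 from 73595309 to 73725598) was at 37.7 FPKM in wt/fl cells and 36.4 FPKM in fl/fl cells, a difference of −0.050. Rbl2, whose product p130 is the pocket protein of the DREAM repressor in resting cells (chromosome 8 from 93593993 to 93659395), was at 26.5 FPKM in wt/fl cells and 29.9 FPKM in fl/fl cells, a difference of 0.17. Rbl1, which is usually made in cycling cells, was lower in level, at 12.0 and 11.1 FPKM. Of the 12 pocket protein and DREAM genes listed, 9 were lower and 3 higher in fl/fl, with a median difference of −0.10. The 3 higher genes were Rbl2, Lin37 (33.8 FPKM in wt/fl cells and 36.3 in fl/fl cells) and Lin9 (7.26 and 7.69 FPKM), and the last pair encode subunits of the MuvB core of DREAM. E2f4, which encodes the E2F partner of p130, was at 41.7 and 40.7 FPKM, and Tfdp1, which encodes the dimerization partner DP1, at 7.66 FPKM in wt/fl cells and 5.72 FPKM in fl/fl cells.

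Myc was at 45.7 FPKM in wt/fl cells and 46.4 FPKM in fl/fl cells when its entries were summed, a difference of 0.020, but its 2 entries went in opposite directions. The more abundant entry was at 33.1 FPKM in wt/fl cells and 29.5 FPKM in fl/fl cells, a difference of −0.16. The other entry was at 12.6 FPKM in wt/fl cells and 16.8 FPKM in fl/fl cells, a difference of 0.39, and its part in the summed level was 27.5% in wt/fl and 36.3% in fl/fl. Both entries share the interval on chromosome 15 from 61816896 to 61821916, and the table does not say which coding sequence each stands for. Myc mRNA is known to be read from alternative start codons, and the split of fragments between transcripts that share most of their exons is an estimate, so the summed value is the more reliable of these. Max, which encodes the obligate partner of Myc, was the most abundant gene of the network, at 92.8 FPKM in wt/fl cells and 89.1 FPKM in fl/fl cells. The Max to Myc ratio was 2.03 in wt/fl and 1.92 in fl/fl. Of the 10 MYC/MAX/MXD network genes averaging 1 FPKM or more, 3 were higher and 7 lower, with a median difference of −0.025, and the next most abundant, Mlxip (45.7 and 39.2 FPKM) and Mga (36.6 and 36.2 FPKM), were among the 7. Mycn and Mycl1, the paralogs of Myc, were at 0.128 FPKM or less in both genotypes.

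In order of wt/fl level, the members ran from Cdk4 through Myc, Rb1, Rbl2, Cdkn1b, Ccnd3, Ccnd2, Cdk6 and Cdkn2c to Cdkn2d. The median gene averaging 1 FPKM or more was at 13.9 FPKM in wt/fl. Cdkn1b, Ccnd3 and Ccnd2 lay close together in wt/fl, at 16.6, 15.7 and 15.3 FPKM, and were at 15.7, 12.4 and 10.4 FPKM in fl/fl, where Cdk6 stood above both cyclins. Without replicate values, neighbors in this order cannot be said to differ.

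The members were next counted against fixed limits on the log2(FPKM + 1) scale. A difference of at least 1.5-fold (0.58 on the log2 scale) was reached by 0 of the 9 members averaging 1 FPKM or more in either direction, and of all 9866 genes 1.53% were lower and 0.791% higher by that limit. At a lower limit of 0.32 on the same scale, 1 member, Ccnd2, was lower, where the share over all genes was 5.48%, and 2 members, Cdk6 and Cdkn2c, were higher, where it was 4.60%. Ccnd3, at −0.3205, lay just short of that limit of 0.3219, and under pseudocounts of 0.5 and 0.1 FPKM, upper quartile scaling or quantile normalization it passed, so that 2 members were lower. Under these settings, in that order, 6.70%, 7.79%, 5.98% and 5.04% of all genes were lower past the limit. Of the 9 members, 5 were lower and 4 higher in fl/fl, with a median difference of −0.0083, and over all genes 49.5% were lower. These shares describe the pooled values and show no more than how often differences of that size occurred in this table.

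**Figure D3:**
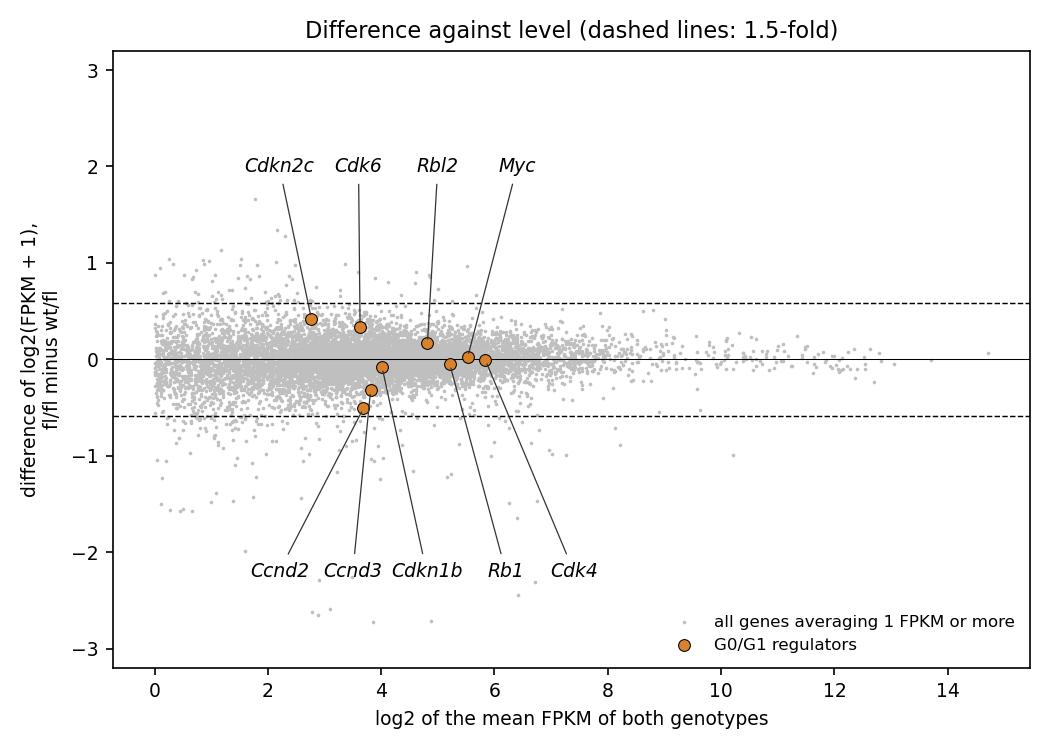
Difference of log2(FPKM + 1), fl/fl minus wt/fl (vertical axis), against the log2 of the mean FPKM of both genotypes (horizontal axis) for the 9866 genes averaging 1 FPKM or more (gray) and the 9 members among them (orange, named). Dashed lines mark 1.5-fold, and all 9 members lie between them, from −0.51 for Ccnd2 to 0.42 for Cdkn2c.

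Genes downstream of the pocket proteins gave no common direction. Of 16 E2F target genes averaging 1 FPKM or more, 7 were higher and 9 lower in fl/fl, with a median difference of −0.012. Pcna, the replication clamp, was at 95.9 FPKM in wt/fl cells and 94.6 FPKM in fl/fl cells, the licensing factor Cdt1 at 37.1 and 33.0 FPKM, and the helicase subunits Mcm4 at 22.6 and 20.1 FPKM and Mcm7 at 18.2 and 19.6 FPKM. The E2F genes themselves were led by E2f2, at 13.8 and 14.0 FPKM, followed by E2f3 (3.41 and 4.21 FPKM) and E2f1 (2.27 and 1.76 FPKM), whereas E2f8 was at 0.404 and 0.131 FPKM. The median difference of the 3 E2F genes that passed the filter was 0.011. The cyclins of the next step were low, with Ccne1 at 3.82 FPKM in wt/fl cells and 4.57 FPKM in fl/fl cells and Ccna2 at 3.26 and 3.16 FPKM, and they had a median difference of 0.087. Ccne2 was at 0.129 FPKM in both genotypes and Ccna1 was listed at 0 in both.

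Myc target genes, most of them factors of ribosome assembly, were mostly slightly higher in fl/fl, although the summed Myc level was nearly equal. Of 25 listed genes, 22 were higher and 3 lower, with a median difference of 0.11, and over all genes 50.5% were higher. The most abundant were Npm1, which encodes nucleophosmin (429 FPKM in wt/fl cells and 485 in fl/fl cells), the rRNA methyltransferase gene Fbl (144 and 162 FPKM), Ldha (122 and 126 FPKM) and Nop56 (109 and 119 FPKM). Odc1, the gene of the first enzyme of polyamine synthesis, was one of the 3 lower, at 45.4 and 40.8 FPKM. The differences of single genes were small, from −0.15 to 0.47, and 0 of the 25 reached 1.5-fold.

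Factors that hold lymphocytes in quiescence or restrain growth were mostly slightly lower. Of 16 listed genes, 13 were lower and 3 higher, with a median difference of −0.15, and over all genes 49.5% were lower. The antiproliferative gene Btg1 was at 369 FPKM in wt/fl cells and 315 FPKM in fl/fl cells, Klf2 at 140 and 126 FPKM, Foxp1 at 133 and 121 FPKM, and Foxo1, whose product is known to raise p27, at 102 and 88.5 FPKM. Slfn2, which encodes a schlafen protein needed for lymphocyte quiescence, had the largest difference of the list, −0.54, at 102 FPKM in wt/fl cells and 69.8 FPKM in fl/fl cells.

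The genes that control the stability of p27, D cyclins and Myc were near their wt/fl levels, with 7 of 15 higher, 8 lower and a median difference of −0.011. Skp1a and Cul1, the core of SCF ubiquitin ligases, were at 71.7 and 64.7 FPKM and at 54.5 and 55.0 FPKM, Rbx1 at 40.7 and 41.6 FPKM, and Dyrk1a, a kinase that marks D cyclins for degradation, at 36.9 and 41.0 FPKM. Skp2, the F-box gene that directs p27 to the ligase, was at 3.88 FPKM in wt/fl cells and 3.36 FPKM in fl/fl cells, and its cofactor Cks1b at 7.72 and 5.69 FPKM.

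Over the 112 genes of the 12 lists averaging 1 FPKM or more, 0 reached 1.5-fold in either direction on the log2(FPKM + 1) scale, where the shares over all genes were 1.53% lower and 0.791% higher. With a pseudocount of 0.5 or 0.1 FPKM, 1 was past 1.5-fold lower, Mki67, and 1 higher, Tyms. At the limit of 0.32 and a pseudocount of 1 FPKM, 4.46% of the list genes were past it in each direction, against 5.48% lower and 4.60% higher over all genes. Here 5 were lower (Ccnd2, Tfdp1, Cks1b, Slfn2 and the proliferation marker Mki67, at 2.69 FPKM in wt/fl cells and 1.501 in fl/fl cells) and 5 higher (Cdk6, Cdkn2c, the nucleotide synthesis genes Tyms, at 1.38 and 2.43 FPKM, and Tk1, at 14.2 and 18.3 FPKM, and the ribosome assembly gene Rrs1, at 6.36 and 9.18 FPKM). The genes in these brackets that are no members were named after their values had been seen. So were Skp2, Lin9, Odc1, the plasma cell marker Sdc1, the neutrophil markers Mpo and Elane and the follicular B cell marker Fcer2a.

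**Figure D4:**
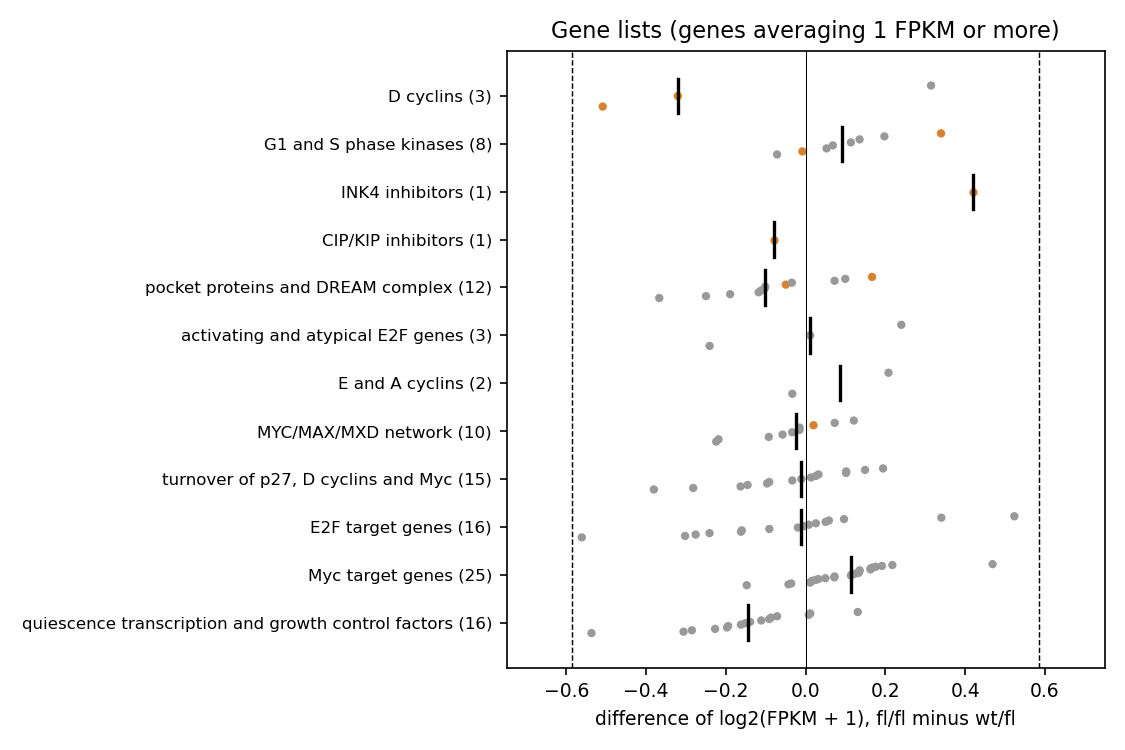
Difference of log2(FPKM + 1), fl/fl minus wt/fl (horizontal axis), for each gene averaging 1 FPKM or more in the 12 gene lists (rows, number of genes in brackets), with members in orange, other genes in gray, the list median as a black bar and 1.5-fold as dashed lines. All points lie between the dashed lines, 22 of the 25 Myc target genes are right of 0, and 13 of the 16 quiescence factors are left of it.

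Markers of neutrophils and of erythroid cells were lower in fl/fl. All 11 neutrophil markers were lower, with a summed level of 379 FPKM in wt/fl cells and 66.9 FPKM in fl/fl cells, led by S100a9, S100a8 and Camp. The 7 of them averaging 1 FPKM or more had differences of −2.65 to −1.57. Mpo and Elane, which mark neutrophil precursors, were barely detected even in wt/fl cells, at 0.0916 and 0.119 FPKM. Both were listed at 0 in fl/fl, and all of these values lie far under the filter of 1 FPKM. The 5 erythroid markers found in the table were likewise lower, at 55.8 and 7.81 FPKM in sum, led by the beta-globin gene Beta-s, Alas2 and Slc4a1. The 7 T cell markers summed to 24.4 and 22.8 FPKM, led by Lck, Cd3d and Cd3e. Lck was at 14.5 FPKM in both genotypes, and 5 of the 7 were lower in fl/fl. The 7 macrophage and monocyte markers summed to 85.6 and 56.7 FPKM, led by Lyz2, Cd68 and C1qb. The 6 plasma cell markers summed to 118 and 107 FPKM, led by Irf4, Xbp1 and Igj, the first pair of which follicular B cells also express. Igj was at 5.40 and 0.617 FPKM, a difference of −1.98, and Sdc1 at 2.30 and 1.13 FPKM, a difference of −0.63, and the 4 plasma cell markers averaging 1 FPKM or more had a median difference of −0.36. The 7 germinal center markers summed to 55.8 and 70.2 FPKM, led by Bcl6, Fas and Mef2b. The part of these markers' cells in the lower D cyclin levels or in the higher Cdk6 and Cdkn2c levels was not tested. The part of these cells in the differences of the gene lists, the quiescence factors among them, was not tested either.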

How the data were processed

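RNA of sorted follicular B cells, 3 samples of each genotype, was amplified with the Ovation RNA-Seq system V2 and sequenced by the authors. The submitters' processing notes name TopHat, Bowtie, Cufflinks and the builds mm10 and GRCm38, whereas positions in the table follow mm9. Versions, options and the use of strand are not given in the sources used here, so fragments of genes overlapping on opposite strands may not be separated. The authors deposited 1 table in the layout of Cuffdiff, with 1 FPKM value per entry and genotype, pooled over the samples. Its columns of fold change, test statistic, status, p-value and q-value hold the authors' own comparison and were not used.

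FPKM was summed per gene name in Python 3.11.15 with pandas 2.3.3, leaving out 44 entries whose symbol reads as a date, and figures were drawn with Matplotlib 3.10.9. Genes averaging 1 FPKM or more entered counts and medians, and differences used a pseudocount of 1 FPKM. The sums, differences and counts were tested on simulated data. The limit was 1.5-fold, with 0.32 on the log2 scale and 2-fold as alternatives, beside pseudocounts of 0.5 and 0.1, filters of 5 FPKM and none, upper quartile scaling, quantile normalization, the most abundant entry of each gene and lists without the members. The members, the 12 lists and the marker lists were chosen with earlier results of these data known. Named genes were the members, Myh9, the 4 most abundant genes of each list, list genes past 1.5-fold, relatives of the members and the leading markers of other cell types. The marker lists were follicular B cell, neutrophil, erythroid, T cell, macrophage and monocyte, plasma cell and germinal center B cell genes. Promoter sequences are from RefSeq and gene spans from GENCODE M21. Protein sequences were not used here.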

Additional observations from a re-analysis of the deposited data

How the results depend on the processing

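No paired analysis was possible because the table holds 1 pooled value per genotype, and for the same reason no replicate could be left out. Of 226 values recomputed under 10 alternatives, 197 stayed within the tolerance (0.1 on the log2 scale, 1 percentage point for shares of a pool, 1.5 times for counts) and 29 did not. Some of the 197 could not move, because most members have 1 entry and several lists hold no member. The count is therefore not a measure of robustness. Ccnd2 ranged from −0.55 to −0.51, Ccnd3 from −0.34 to −0.32, Cdk6 from 0.33 to 0.36 and Cdkn2c from 0.41 to 0.48 over the alternatives that apply to them. At a limit of 0.32 on the log2 scale in place of 1.5-fold, 1 member was lower and 2 were higher, and at 2-fold 0 were either. Counts at 0.32, and over the lists, were recomputed under the other pseudocounts, scalings and entry choice after the data had been seen. The lower members were then 2, Ccnd2 and Ccnd3, under both pseudocounts and both scalings. The share of all genes that were lower was 6.70% with 0.5 FPKM, 7.79% with 0.1 FPKM, 5.98% with upper quartile scaling and 5.04% with quantile normalization. Of the list genes, 1 was past 1.5-fold in each direction with either pseudocount, and 10 were lower past 0.32 with 0.1 FPKM, where 8.93% of list genes and 7.79% of all genes were. With a pseudocount of 0.1 FPKM the difference of Cdkn2d, which is near 0 FPKM, was 0.60, and with 0.5 FPKM it was 0.31. Without a filter on FPKM, which adds genes near 0, the medians were 0.21 for the INK4 and −0.28 for the CIP/KIP inhibitors. Without the members, the D cyclin list was Ccnd1 alone, at 0.31. With the most abundant entry alone, the difference of Myc was −0.16. The same choice drops 1 entry each of Cdk2 and Rbl1: in wt/fl and fl/fl, the kinase sum was then 16.4% and 16.1% Cdk2, 70.4% and 67.4% Cdk4 and 13.2% and 16.4% Cdk6, and the pocket protein sum 51.3% and 48.3% Rb1, 12.7% and 12.1% Rbl1 and 36.1% and 39.6% Rbl2. The median difference of all genes was −0.012 with upper quartile scaling and 0.0063 with quantile normalization. Depth per sample is unknown, so the precision of low values cannot be stated.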
